A study of Mus musculus with 8 samples.

Results

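Retinoid metabolism and signalling was followed through 8 genes in primary mouse lung fibroblasts exposed to TWEAK: Dhrs3, Aldh1a1, Aldh1a2, Aldh1a3, Rbp4, Stra6, Rarb and Cyp26b1. They were picked by symbol, with earlier results from these same libraries known, from 52110 rows of the count table that carried a symbol. All 8 were found, 7 passed the filter on low counts, and Stra6 did not. Because the choice had drawn on these libraries, the differences of the 8 genes between groups are given as descriptions, with standard errors and 95% intervals and without tests. The cells were wild-type (WT in the labels) fibroblasts from mouse lung, grown in medium with fetal bovine serum, and the age and strain of the animals are not given in the labels. They were left untreated or received recombinant TWEAK at 10, 30 or 100 ng/ml, and all were collected at 48 hours. TWEAK is a cytokine of the tumour necrosis factor family that binds the receptor Fn14 and is known to activate NF-kB signalling. Each of the 4 groups had 2 libraries, 8 in all, and the labels do not say whether these came from separate cultures or animals. P-values therefore reflect only how these libraries differed from each other, and that spread could be technical.

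Cells take up retinol, which circulates bound to the carrier protein encoded by Rbp4, partly through the membrane receptor encoded by Stra6. Retinol is oxidised reversibly to retinal, a step that RDH10 drives forward and DHRS3 drives back, and retinal is then oxidised irreversibly to retinoic acid by the aldehyde dehydrogenases ALDH1A1, ALDH1A2 and ALDH1A3. Retinoic acid binds nuclear receptors of the RAR family, among them the product of Rarb, and is broken down by enzymes of the CYP26 family, among them CYP26B1. In the lung, retinoic acid signalling is known for its part in the formation of the organ and of the alveoli, and lung fibroblasts can store retinoids.

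Each library held 37345575 to 50896445 counts. Levels are in CPM, the count relative to the TMM-scaled library total, and 3 counts, the limit that a count of 0 allows, stood for 0.0599 to 0.0801 CPM. The libraries labelled 100 ng/ml lay between the untreated libraries and those of the lower doses. On the first principal component, which held 63.9% of the variance, they stood at -27.1 and -27.2, against -49.0 and -47.5 for untreated cells, 25.5 and 35.7 at 30 ng/ml and 44.0 and 45.6 at 10 ng/ml. They also had the fewest genes called against untreated cells, 194, against 5075 at 10 ng/ml and 4041 at 30 ng/ml. No value here checks the dose labels, so a reversal or swap of doses was not tested, and every value by dose rests on the labels. All 8 fibroblast markers examined (among them Col1a1, Pdgfra and Thy1) had counts in every group. Of 6 epithelial markers, none passed the filter, and their summed level was at most 0.187 CPM in any library.

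The start of Rarb carried a retinoic acid response element, shown here because Rarb is known as a direct target of retinoic acid receptors as well as a member of their family. The stretch is 30 bases long, from -60 to -31 relative to the RefSeq start site, at chr14:16575507-16575536 on the minus strand of GRCm38.p6, and an exon of another Rarb transcript of GENCODE M21 covers it. It is printed 5′ to 3′ from the RefSeq promoter table, with the element in capitals:

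Rarb: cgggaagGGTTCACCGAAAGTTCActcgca

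The element is a direct repeat with a spacer of 5 bases, at -53 to -37. Searched on both strands, it was found in 32 of 32851 RefSeq promoters of the same 300 bases (0.0974%). Those promoters included 14 of 7 of the 8 genes, and only this one of the 14 held it. The repeats with a spacer of 2 bases (0.268% of promoters) and of 1 base (0.222%) were found in none of the 14, and neither was AGGTCA (16.3%). The shorter GTTCA, part of both repeats in the Rarb element, was in 3 of the 14, against 35.2% of all promoters. A match describes letters in the window and no binding was measured.

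The start of Cyp26b1 held a match to the NF-kB consensus. It is shown in capitals in the 150 bases from -250 to -101, at chr6:84593911-84594060 on the minus strand of GRCm38.p6:

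Cyp26b1: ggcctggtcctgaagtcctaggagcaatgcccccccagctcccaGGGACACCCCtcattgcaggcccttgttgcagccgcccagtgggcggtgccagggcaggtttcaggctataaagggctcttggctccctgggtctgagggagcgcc

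The match lay at -206 to -197. Positions count from the RefSeq start site, base 84593810, and the GENCODE M21 gene starts upstream of it, at 84593908. Binding was not measured, and a link between the match and the level of Cyp26b1 was not tested. The consensus, searched on both strands, was in 1480 promoters (4.51%) and in 1 of the 14 of the 8 genes. The letters TATAAA stood in the same stretch at -139 to -134, and were in 13.6% of promoters and in 2 of the 14.

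For retinoid transport, both genes had few counts in every group. Rbp4 (chromosome 19, 38116629-38125281, minus strand, mm10) had 0.260 and 0.622 CPM in untreated cells, 0.347 and 0.491 CPM at 10 ng/ml, 0.925 and 0.708 CPM at 30 ng/ml, and 0.704 and 0.925 CPM at 100 ng/ml. These levels came from 13 to 42 counts per library. The untreated libraries differed 2.40-fold from each other and overlapped those at 10 ng/ml, while both libraries at 30 and at 100 ng/ml lay above them. Its log2 change was -0.07 ± 0.56 (SE) at 10 ng/ml, 0.89 ± 0.55 at 30 ng/ml and 0.88 ± 0.55 at 100 ng/ml. At 30 ng/ml it was 0.39 without replicate 1 of the untreated cells and 1.64 without replicate 2, and at 100 ng/ml 0.39 and 1.64. Stra6 (chromosome 9, 58063788-58153996, plus strand) had 0 counts in 6 of the 8 libraries, 7 counts in replicate 2 at 10 ng/ml and 3 in replicate 2 at 30 ng/ml. No difference in Stra6 was detectable at this depth.

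Dhrs3, whose product reduces retinal back to retinol, was lower in all 3 TWEAK groups. The gene lies on chromosome 4 (144892827-144928209, plus strand). Untreated libraries had 34.0 and 32.6 CPM, and TWEAK libraries had 11.8 and 10.0 CPM at 10 ng/ml, 10.8 and 9.04 CPM at 30 ng/ml and 11.0 and 14.5 CPM at 100 ng/ml. All 6 TWEAK libraries lay below both untreated ones, at group means of 32.8%, 29.7% and 38.3% of the untreated mean. The log2 change was -1.61 ± 0.16 (SE) at 10 ng/ml, -1.75 ± 0.16 at 30 ng/ml and -1.39 ± 0.16 at 100 ng/ml. The level at 100 ng/ml overlapped that at 10 ng/ml, and the difference between them was 0.22 on the log2 scale (95% interval -0.15 to 0.60).

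The 3 retinal dehydrogenase genes were lower at 10 and 30 ng/ml, and all 3 stood nearer to untreated cells at 100 ng/ml. Aldh1a1 (chromosome 19, 20492715-20643465, plus strand) had 112.8 and 119.3 CPM in untreated cells, 24.2 and 17.2 CPM at 10 ng/ml, 27.8 and 30.1 CPM at 30 ng/ml, and 71.9 and 92.6 CPM at 100 ng/ml. No TWEAK library overlapped the untreated ones, and the group means were 17.8%, 24.96% and 70.9% of the untreated mean. On the log2 scale the change was -2.49 ± 0.18 (SE), -2.00 ± 0.17 and -0.50 ± 0.17 at 10, 30 and 100 ng/ml.

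Aldh1a3 (chromosome 7, 66390890-66427517, minus strand) had 34.6 and 28.2 CPM in untreated cells, 7.02 and 6.41 CPM at 10 ng/ml, 8.72 and 12.3 CPM at 30 ng/ml, and 30.3 and 29.0 CPM at 100 ng/ml. The libraries at 10 and 30 ng/ml lay below all others, and those at 100 ng/ml fell within the untreated range. The log2 change was -2.23 ± 0.18 (SE), -1.58 ± 0.18 and -0.08 ± 0.17.

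Aldh1a2, the retinal dehydrogenase best known from the embryo, differed least of the 3. The gene lies on chromosome 9 (71215789-71296243, plus strand). Its level was 87.2 and 79.1 CPM in untreated cells, 50.4 and 46.3 CPM at 10 ng/ml, 52.0 and 60.2 CPM at 30 ng/ml, and 71.7 and 86.0 CPM at 100 ng/ml. The libraries at 10 and 30 ng/ml lay below all others, and those at 100 ng/ml overlapped the untreated ones. The log2 change was -0.78 ± 0.12 (SE), -0.57 ± 0.12 and -0.08 ± 0.12. Between 100 and 10 ng/ml the log2 difference was 1.99 (95% interval 1.58 to 2.40) for Aldh1a1, 2.14 (1.72 to 2.57) for Aldh1a3 and 0.71 (0.43 to 0.98) for Aldh1a2.

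Per exon length, Aldh1a2 was the most abundant of the 3 in every library, and its share of their sum was larger at 10 and 30 ng/ml. The order and the size of the shares rest on merged exon lengths. These were 4937 bases over 6 transcripts for Aldh1a1 and 2264 bases over 1 transcript for Aldh1a2. In CPM, Aldh1a1 stood above Aldh1a2 in both untreated libraries (112.8 and 119.3 against 87.2 and 79.1). It also did so in both libraries at 100 ng/ml (71.9 and 92.6 against 71.7 and 86.0). The summed level of the 3 genes, in RPKM (CPM divided by the exon length in kilobases), was 68.9 and 65.2 in untreated cells, 28.7 and 25.3 at 10 ng/ml, 30.5 and 35.4 at 30 ng/ml, and 52.8 and 63.0 at 100 ng/ml. The libraries at 10 and 30 ng/ml did not overlap the other 4. Aldh1a2 made up a mean of 54.8% of the sum in untreated cells, 79.2% at 10 ng/ml, 75.3% at 30 ng/ml and 60.1% at 100 ng/ml, while Aldh1a1 made up 35.1%, 15.4%, 17.9% and 28.7%. Of 2017 windows of 50 bases in the transcripts of the paralog Aldh1a7, 151 (7.49%) also occur in Aldh1a1, so reads of this pair can be split, and no such window was shared among Aldh1a1, Aldh1a2 and Aldh1a3. Aldh1a7 had 34 and 32 counts in untreated cells and 0 in both libraries at 10 ng/ml, at least 17.7-fold lower against 3 counts over the group. It had 7 and 0 counts at 30 ng/ml and 13 and 3 at 100 ng/ml.

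**Figure D1:**
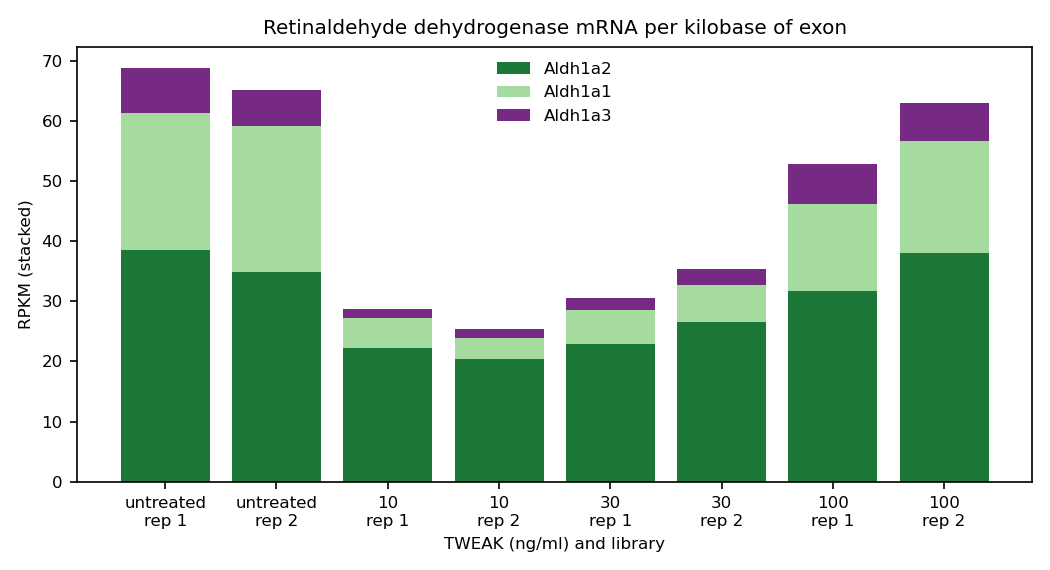
Level of Aldh1a1, Aldh1a2 and Aldh1a3 in RPKM, stacked to their sum, 1 bar for each of the 8 libraries. The sum stood at 65.2 and 68.9 in untreated libraries and at 25.3 to 35.4 in those at 10 and 30 ng/ml, and most of what remained there was Aldh1a2.

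Cyp26b1, whose product degrades retinoic acid, was higher in all 3 TWEAK groups and was the only one of the 8 higher at 10 ng/ml with groups that did not overlap. The gene lies on chromosome 6 (84571414-84593908, minus strand). Its level was 1.42 and 1.89 CPM in untreated cells, 6.94 and 5.68 CPM at 10 ng/ml, 4.67 and 5.43 CPM at 30 ng/ml, and 3.07 and 2.30 CPM at 100 ng/ml. Every TWEAK library lay above the untreated ones, and those at 100 ng/ml lay below the other 4 TWEAK libraries, with group means at 382%, 306% and 163% of the untreated mean. On the log2 scale the change was 1.93 ± 0.24 (SE), 1.61 ± 0.24 and 0.70 ± 0.24, and the log2 difference between 100 and 10 ng/ml was -1.23 (95% interval -1.78 to -0.68). Of the related genes, Cyp26a1 had 0 counts in all 8 libraries, and Cyp26c1 had 2 counts over the untreated group, 12 over the group at 10 ng/ml and 0 in the others.

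Rarb, which encodes the retinoic acid receptor beta, was expressed at a low level and was lower with TWEAK. Its level was 3.06 and 2.61 CPM in untreated cells, 1.28 and 0.958 CPM at 10 ng/ml, 1.43 and 1.16 CPM at 30 ng/ml, and 1.03 and 2.25 CPM at 100 ng/ml. All TWEAK libraries lay below the untreated ones, but those at 100 ng/ml differed 2.19-fold from each other, on 41 and 90 counts, so that both libraries at 30 ng/ml lay between them and those at 10 ng/ml overlapped them. Its log2 change was -1.34 ± 0.40 (SE), -1.13 ± 0.39 and -0.79 ± 0.39, and at 100 ng/ml it was -0.33 without replicate 1 at that dose and -1.46 without replicate 2. The gene (chromosome 14, 16430839-16819156, minus strand) shares exonic sequence with Top2b and Gm48162 on the opposite strand, and since the use of strand in counting is not given, reads from there cannot be told apart. Per exon length, Rarb was the lowest of the 3 receptors, at 0.538 ± 0.060 RPKM (SD, n = 2) in untreated cells against 8.88 ± 0.63 for Rara and 25.6 ± 2.5 for Rarg. Its share of the summed RPKM of the 3 was 1.56% and 1.51% in untreated cells, 0.834% and 0.649% at 10 ng/ml, 0.921% and 0.758% at 30 ng/ml, and 0.574% and 1.22% at 100 ng/ml.

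**Figure D2:**
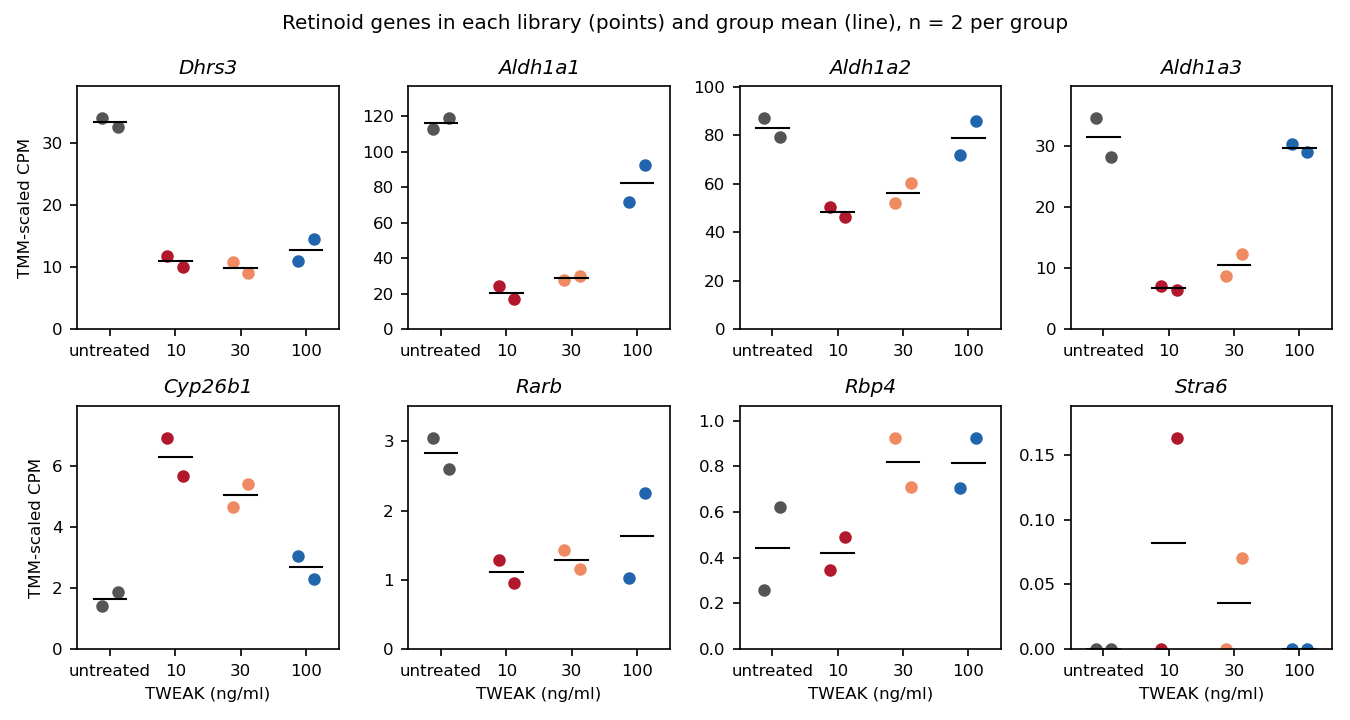
Level of each of the 8 genes in every library, in CPM on a separate axis for each gene, by labelled TWEAK dose. Dhrs3 was low in all 6 TWEAK libraries, whereas at 100 ng/ml both libraries of Aldh1a3 and 1 of 2 of Aldh1a2 lay between the untreated ones.

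The 8 genes thus differed in how they stood at 100 ng/ml. Dhrs3 was at 38.3% of its untreated mean there, near its levels at the other doses, whereas Aldh1a2 and Aldh1a3 were at 94.8% and 94.4%, Aldh1a1 was at 70.9% and Cyp26b1 was at 163%. Rarb was at 57.9%, with libraries 2.185-fold apart that overlapped those at 10 ng/ml, and Rbp4, on few counts, was at 185%. The untreated and TWEAK libraries did not overlap for 6, 7 and 5 of the 7 genes that passed the filter at 10, 30 and 100 ng/ml, against 65.6%, 63.2% and 44% of all genes. Nothing is read from these counts, since the genes were chosen with such results known. The 3 comparisons share the untreated libraries.

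**Figure D3:**
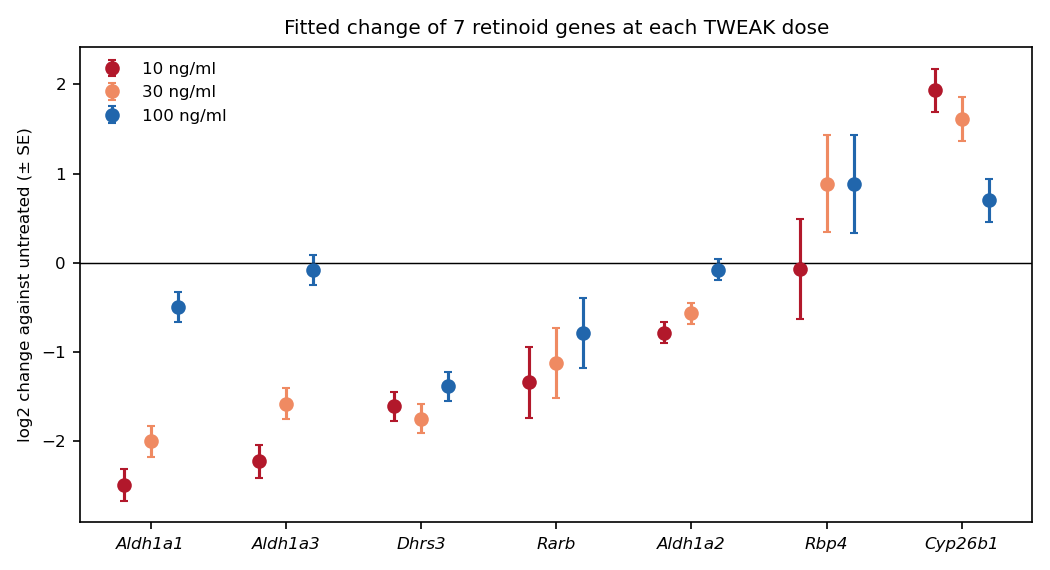
Log2 change against untreated cells of the 7 genes that passed the filter, as the fitted value ± SE, at 10, 30 and 100 ng/ml. Dhrs3 ranged from -1.75 to -1.39 over the 3 doses, while Aldh1a3 ranged from -2.23 to -0.08.

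The genes whose levels over the 8 libraries were most like those of each of these genes differed from member to member. Likeness is given as Pearson's r of log2(CPM + 0.5) among 10555 genes whose mean reached 5 CPM. Symbols of predicted genes, RIKEN genes and clones, date symbols and repeated rows of a symbol were left out. The likeness is a description, because the 8 libraries fall into 4 groups and share the treatment. Closest to Dhrs3 were Vapb (r = 0.986), Prkce (0.980) and Osbpl5 (0.976). For Aldh1a1 they were Decr1 (0.998), Scrn1 and Oat (both 0.997). Aldh1a3 was closest to Tgfbr3 (0.998), Scn7a and Thra (both 0.996), and Aldh1a2 to Man2b1 (0.998), Lzts3 and Ltbp3 (both 0.991). Zbtb7c (0.994), Vamp8 and Sema3b (both 0.993) came closest to Cyp26b1. For the genes of low counts the highest values were smaller for Rbp4, with Adprm (0.955), Sat1 (0.937) and Cep95 (0.936), while Rarb had Fdx1 (0.984), Cyb5r3 (0.972) and Lipe (0.968).

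The rest of the pathway was described with a list of 63 other retinoid genes, of which 47 were tested and 6 had 0 counts in all libraries. The list was chosen with earlier results of these data known. Its counts and p-values, here and by role below, are descriptions and no independent support. At 10 ng/ml 7 of the 47 rose and 16 fell, at an adjusted p under 0.05 over all genes, against 15% of all 17360 genes tested that rose and 14.2% that fell (29.2% in all). The median log2 change of the 47 was -0.30, against 0.01 for all genes. At 30 ng/ml 8 rose and 10 fell (12.6% and 10.7% of all genes, 23.3% together), with a median of -0.22 against 0.01. The counts rested in part on single libraries. At 10 ng/ml 12 genes passed without replicate 1 of the untreated cells and 12 without replicate 2 at 10 ng/ml. At 30 ng/ml 9 passed without replicate 1 of the untreated cells and 10 without replicate 2 at 30 ng/ml. Of the 25 genes called at 10 or 30 ng/ml, 11 have an exon that overlaps another gene, and their counts are uncertain to that extent. They are Adh1, Adh7, Lipe, Rdh5, Ncoa1, Ncoa3, Ncor1, Rai14, Rarres2, Hoxa2 and Hoxb5. For Rdh5 (with Bloc1s1) and Hoxa2 (with Gm28308) the overlapping gene is on the same strand.

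At 100 ng/ml edgeR called none of the 47 genes, against 1.12% of all genes (0.812% higher and 0.305% lower). An unadjusted p under 0.05 was found for 7 of the 47 (14.9%), against 11.6% of all genes. DESeq2 called 3 of them (Adh1, Cyp1b1 and Fabp5) and limma-voom called 0. Between 100 and 10 ng/ml 9 of the 47 genes were higher and 5 lower at 100 ng/ml (10.7% and 11.2% of all genes). Only 8 genes passed there without replicate 1 at 10 ng/ml or without replicate 2 at 100 ng/ml, and 9 without replicate 2 at 10 ng/ml. Between 100 and 30 ng/ml 4 were higher and 6 lower (7.15% and 8.04%), and 6 passed without replicate 1 at 30 ng/ml or without replicate 1 at 100 ng/ml. Between 30 and 10 ng/ml edgeR called none of the 47 and none of all genes (0%), while 4 of the 47 (8.51%) had an unadjusted p under 0.05, against 6.96% of all genes, and DESeq2 called 1, Adh1.

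Among the retinol and retinal oxidoreductases, 2 of 12 tested rose and 4 fell at 10 ng/ml (15% and 14.2% of all genes), and 2 rose and 1 fell at 30 ng/ml (12.6% and 10.7%). Adh1, an alcohol dehydrogenase that oxidises retinol, had 101.4 and 100.9 CPM in untreated cells, 15.8 and 13.9 CPM at 10 ng/ml, 17.9 and 26.2 CPM at 30 ng/ml, and 65.0 and 69.7 CPM at 100 ng/ml. It fell by 2.77 ± 0.17 (SE) on the log2 scale at 10 ng/ml (edgeR adjusted p = 2e-05) and fell by 2.20 ± 0.17 at 30 ng/ml (edgeR adjusted p = 7.69e-05). At 100 ng/ml the change was -0.59 ± 0.16 (edgeR adjusted p = 0.172), with both libraries below both untreated ones.

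Rdh10, which carries out the step opposite to that of Dhrs3, rose from 20.1 and 20.7 CPM in untreated cells to 39.2 and 39.8 CPM at 10 ng/ml and 38.4 and 35.7 CPM at 30 ng/ml. Its log2 change was 0.95 ± 0.08 (SE, edgeR adjusted p = 9.66e-05) and 0.86 ± 0.08 (edgeR adjusted p = 0.000227), and at 100 ng/ml, with 24.8 and 24.5 CPM, it was 0.27 ± 0.08 (edgeR adjusted p = 0.225). Per exon length, Dhrs3 stood at 2.40 and 2.23 times the level of Rdh10 in untreated cells, and at 0.428 and 0.358 times at 10 ng/ml, 0.398 and 0.360 times at 30 ng/ml, and 0.631 and 0.838 times at 100 ng/ml. The more abundant of the pair was thus Dhrs3 in both untreated libraries and Rdh10 in all 6 TWEAK libraries. Rdh11, another retinal reductase, rose by 0.29 ± 0.07 (SE) on the log2 scale at 10 ng/ml (edgeR adjusted p = 0.0118), a call lost without replicate 2 of the untreated cells (adjusted p = 0.0895) or replicate 2 at 10 ng/ml (0.0613). Rdh5, Dhrs4 and Adh7 also fell at 10 ng/ml. The call for Rdh5 was lost without replicate 2 of the untreated cells or either library at 10 ng/ml (adjusted p = 0.0502 to 0.0634), that for Adh7 without any 1 library of those groups (0.0661 to 0.120), and that for Dhrs4 without any 1 library other than replicate 1 at 10 ng/ml (0.0548 to 0.197).

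For synthesis against breakdown, the summed RPKM of the 3 Aldh1a genes was 259.9 and 185 times that of Cyp26b1 in untreated cells, 22.1 and 23.9 times at 10 ng/ml, 35.0 and 34.9 times at 30 ng/ml, and 92.1 and 146.6 times at 100 ng/ml. The 4 groups did not overlap in this ratio of transcript levels, which was built from genes chosen for their pattern. Enzyme amounts and retinoic acid were not measured. Cyp1b1, a cytochrome that can also oxidise retinol, rose from 221.7 ± 2.4 CPM (SD, n = 2) to 282.6 ± 6.5 CPM at 10 ng/ml, or by 0.35 ± 0.08 on the log2 scale (SE, edgeR adjusted p = 0.00976). That call was lost without replicate 1 or 2 of the untreated cells (adjusted p = 0.0517 and 0.0606) or replicate 2 at 10 ng/ml (0.0527).

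Among the binding and transport genes, 1 of 6 tested rose and 1 fell at 10 ng/ml (15% and 14.2% of all genes). Fabp5, a carrier that can deliver retinoic acid to the receptor encoded by Ppard, rose from 34.8 ± 2.5 CPM (SD, n = 2) to 92.1 ± 0.4 CPM at 10 ng/ml and 87.2 ± 1.2 CPM at 30 ng/ml. Its log2 change was 1.41 ± 0.08 (SE, edgeR adjusted p = 1.66e-05) and 1.33 ± 0.08 (edgeR adjusted p = 3.55e-05), and at 100 ng/ml, with 46.3 ± 3.2 CPM, it was 0.41 ± 0.08 (edgeR adjusted p = 0.0736). Stra6l, a relative of Stra6 that also transports retinol, had 32 and 23 counts in untreated cells, 0 in both libraries at 10 ng/ml, 1 and 10 at 30 ng/ml, and 18 and 17 at 100 ng/ml. At 10 ng/ml this was at least 14.7-fold lower, against 3 counts over the group (edgeR adjusted p = 0.0160). The call was lost without replicate 1 of the untreated cells (adjusted p = 0.0658) or without replicate 1 or 2 at 10 ng/ml (0.0618 and 0.0648). Of the 3 storage and carotenoid genes tested, Lipe, a lipase that also acts on retinyl esters, fell from 20.01 ± 1.07 to 11.99 ± 0.07 CPM at 10 ng/ml (edgeR adjusted p = 0.00924), a call lost without replicate 1 of the untreated cells (0.0574).

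Of 5 other nuclear receptors tested, 1 rose and 2 fell at 10 ng/ml (15% and 14.2% of all genes). Ppard rose from 24.4 ± 0.7 CPM (SD, n = 2) to 40.8 ± 0.3 CPM, or by 0.74 ± 0.09 on the log2 scale (SE, edgeR adjusted p = 0.000674). Rara fell by 0.35 ± 0.10 (edgeR adjusted p = 0.0341) and Rarg by 0.25 ± 0.08 (edgeR adjusted p = 0.0444). The call for Rara was lost without any 1 of 7 libraries (adjusted p = 0.0504 to 0.190), the exception being replicate 1 at 10 ng/ml. The call for Rarg was also lost without any 1 of 7 libraries (0.0650 to 0.270), the exception being replicate 2 of the untreated cells, and with the replicate number as a block (0.0627). Of 6 coregulators tested, 4 fell at 10 ng/ml and none rose (14.2% and 15% of all genes). The receptor coactivators Ncoa1, Ncoa2 and Ncoa3 fell by 0.73 ± 0.12, 0.43 ± 0.08 and 0.33 ± 0.07 (SE) on the log2 scale (edgeR adjusted p = 0.00334, 0.00616 and 0.0103). The corepressor Ncor1 also fell. Its call was lost without either untreated library, without replicate 2 at 10 ng/ml, and with only the groups compared. The call for Ncoa3 was lost without replicate 1 of the untreated cells (0.0636) or replicate 2 at 10 ng/ml (0.0585).

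Of 14 known retinoic acid target genes tested, 2 rose and 4 fell at 10 ng/ml (15% and 14.2% of all genes), and 3 rose and 5 fell at 30 ng/ml (12.6% and 10.7%). Rarres1, named as a retinoic acid receptor responder, rose from 0.851 ± 0.215 CPM (SD, n = 2) to 7.24 ± 1.44 CPM at 10 ng/ml and 5.56 ± 1.05 CPM at 30 ng/ml, log2 changes of 3.08 ± 0.27 (SE, edgeR adjusted p = 0.000110) and 2.70 ± 0.27 (edgeR adjusted p = 0.000288). Rai14, named as induced by retinoic acid, rose from 37.7 ± 10.6 to 140.6 ± 10.2 CPM at 10 ng/ml (1.90 ± 0.17 on the log2 scale, edgeR adjusted p = 0.000127). Hoxb5, a homeobox gene, fell from 39.6 ± 0.6 to 21.6 ± 2.2 CPM (-0.88 ± 0.12 on the log2 scale, edgeR adjusted p = 0.00109), and its relative Hoxa5 fell from 42.7 ± 3.6 to 27.0 ± 0.1 CPM (-0.66 ± 0.10, edgeR adjusted p = 0.00167). The other calls were less stable. Mdk and Meis2 fell at 10 and 30 ng/ml, and at 30 ng/ml Rarres2 also rose and Hoxa2 fell. With the replicate number as a block, Hoxa2 and Meis2 lost the call at 30 ng/ml. With only the groups compared, Rarres2 lost it at 30 ng/ml and Meis2 at 10 ng/ml. The log2 change of Mdk at 10 ng/ml was -0.68 to -0.49 with 1 library left out, and some of these fits did not call it.

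**Figure D4:**
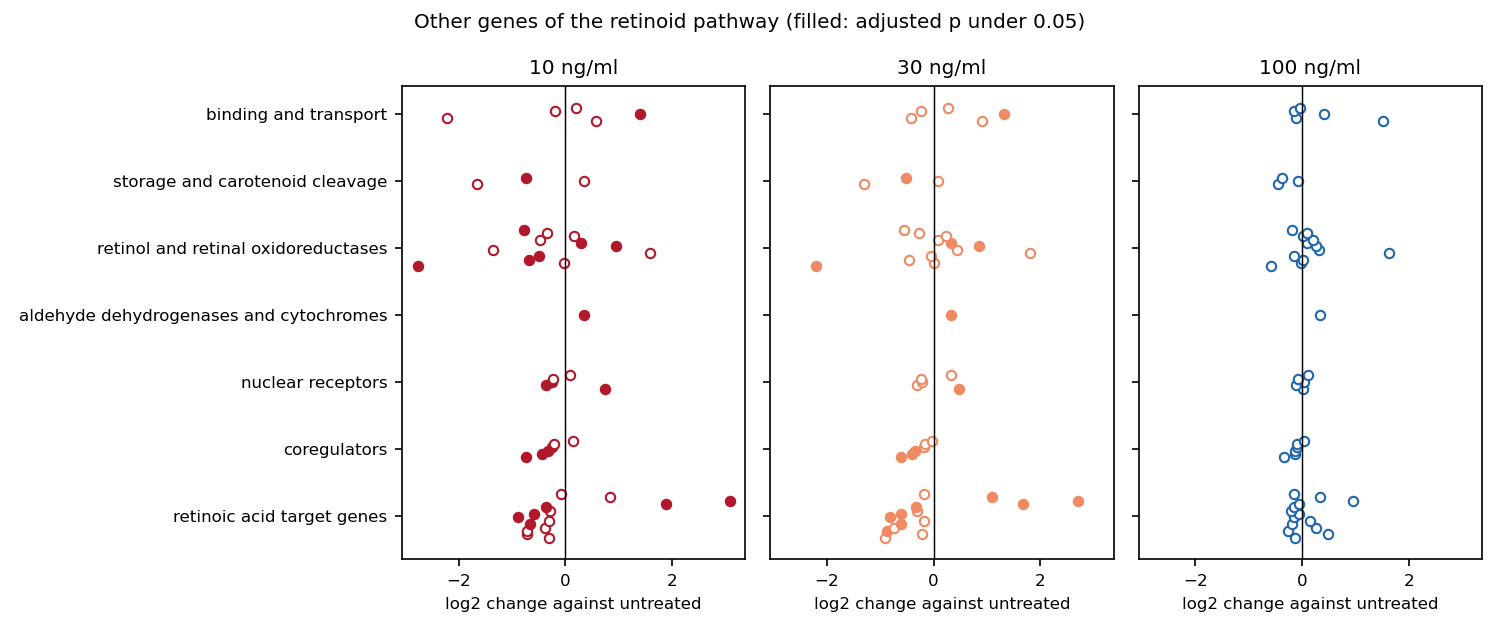
Log2 change against untreated cells of the tested genes of the retinoid list, grouped by role, at 10, 30 and 100 ng/ml. Stra6l, with 0 counts at 10 ng/ml, is left out. Rarres1 stood highest, at 3.08 at 10 ng/ml, and Adh1 lowest, at -2.77.

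Markers of the cells these cultures could hold also differed between groups, and in bulk RNA fewer cells of a type and less RNA per cell cannot be told apart. The summed level of the 8 fibroblast markers was 20440 to 20790 CPM in untreated cells, 9932 to 10010 CPM at 10 ng/ml, 10830 to 12140 CPM at 30 ng/ml and 18100 to 18970 CPM at 100 ng/ml. Col3a1, Col1a2 and Col1a1 had the highest levels of the 8 in untreated cells and weighed most in this sum. From untreated cells to 10 ng/ml, mean CPM went from 8910 to 1910 for Col3a1, 4319 to 3006 for Col1a2 and 4089 to 1608 for Col1a1. At 10 ng/ml 2 of the 8 rose, Pdgfra (1262 to 1463 CPM) and Dcn (1132 to 1500 CPM), and 6 fell. Over all genes 15% rose and 14.2% fell at that dose, and 12.6% and 10.7% at 30 ng/ml, the background of the marker counts below. The marker sets, too, were chosen with earlier results of these data known. The 6 mesothelial markers (mesothelium is a known site of Aldh1a expression) summed to 19.0 to 19.9 CPM in untreated cells, 6.36 to 8.47 CPM at 10 ng/ml, 6.36 to 7.79 CPM at 30 ng/ml and 13.0 to 16.3 CPM at 100 ng/ml. Of the 5 tested, 4 fell at 10 ng/ml and 3 at 30 ng/ml. Wt1 was called at neither dose, with log2 changes of -0.46 ± 0.42 (SE) and -0.09 ± 0.41, and Bnc1 was not called at 30 ng/ml. Msln, which was not tested, had 0 counts at both doses, but only 0 and 5 counts in untreated cells. The 5 lipofibroblast markers, of the fibroblasts known to store retinoids, summed to 242.5 to 244.5 CPM in untreated cells, 464 to 527 CPM at 10 ng/ml, 427 to 439 CPM at 30 ng/ml and 256.9 to 269.5 CPM at 100 ng/ml. Plin2, Lpl and Fabp4 rose and Pparg and Tcf21 fell at 10 and 30 ng/ml. The 6 smooth muscle and pericyte markers summed to 96.9 to 112.8 CPM in untreated cells and to 157.1 to 170.5, 148.9 to 156.4 and 113 to 116.9 CPM at 10, 30 and 100 ng/ml. At 10 ng/ml 3 rose, Des (mean 31.54 to 114.8 CPM), Rgs5 and Cspg4. The 2 that fell there were Myh11 (26.83 to 12.95 CPM) and Kcnj8 (27.5 to 12.9 CPM). The 6 macrophage and leukocyte markers summed to 11.6 to 15.3 CPM in untreated cells and to between 21.7 and 27.3 CPM with TWEAK. Only Cd68 was called higher, at each dose. Lyz2 had a mean of 9.53 CPM in untreated cells and 14.2, 14.7 and 17.6 CPM at 10, 30 and 100 ng/ml, without a call. The 6 endothelial markers summed to between 5.83 and 7.69 CPM in all groups, with 1 rising and 1 falling at 10 ng/ml. These were Cdh5, from 0.150 to 4.04 CPM, and Tek, from 4.73 to 1.46 CPM. The part of these cells in the retinoid results was not tested.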

How the data were processed

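RNA was sequenced from 8 libraries. The values are raw read counts for each gene, unnormalized, in 1 table that the authors deposited. The submitters' processing notes list the mm10 build, STAR and StringTie, without versions or roles. The counting program, annotation and strand setting were not given in the sources used here, so reads of overlapping genes could be assigned to either. Groups and replicate numbers came from the titles. All measured columns were used. Rows without a symbol (3225 of 55335, 0.168% to 0.178% of a library's counts) were left out.

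Tests were edgeR 4.0.16 quasi-likelihood F tests (R 4.3.3) in 1 fit over 4 group means, with filterByExpr (17360 genes), TMM scaling, 4 residual and 3.77 prior degrees of freedom, and two-sided p-values adjusted by Benjamini-Hochberg at 0.05. The code was tested on simulated data. Levels are TMM-scaled CPM. RPKM divides these by the merged exon length in GENCODE M21, which also gave the positions on mm10. Promoters are RefSeq's, on GRCm38.p6. Standard errors are approximate, derived from each change and its F statistic. Counting limits cover counting error only.

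The members and the lists (63 retinoid genes, 7 sets of cell type markers) were chosen with earlier results of these data known. Genes of the retinoid list given with values are the called genes with the smallest p in each role, up to 3 at 10 ng/ml and 2 at 100 ng/ml. Alternatives were DESeq2 1.42.0, limma-voom (limma 3.58.1), DESeq2 size factors, library totals, other filters, only the groups compared, a replicate block and leaving out each library.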

Additional observations from a re-analysis of the deposited data

How the results depend on the processing

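Of 347 values of the 8 genes under alternatives, 327 moved by less than the spread between replicates and 20 by more. The sign changed in 5: Rbp4 at 10 ng/ml in 3, and Aldh1a2 (without replicate 1 at 100 ng/ml) and Aldh1a3 (without replicate 1 of the untreated cells) at 100 ng/ml in 1 each. Of 696 values of called genes of the retinoid list, 117 lost the call and 0 changed sign. Leaving out 1 library at a time gave 12 to 20 called genes of the list at 10 ng/ml, 9 to 16 at 30 ng/ml, 0 to 1 at 100 ng/ml, 8 to 12 between 100 and 10 ng/ml, 6 to 8 between 100 and 30 ng/ml and 0 to 1 between 30 and 10 ng/ml. Over all genes it gave 3392 to 4839 at 10 ng/ml, 2540 to 3831 at 30 ng/ml and 91 to 237 at 100 ng/ml, in both cases lowest without replicate 1 of the untreated cells. The count at 30 ng/ml moved by over 1.5 times without either untreated library or replicate 1 at 30 ng/ml, that at 100 ng/ml without either untreated library or either library at 100 ng/ml, and that at 10 ng/ml moved by less in each case. The fit with fewer libraries has fewer residual degrees of freedom, and the cause was not tested further. At 100 ng/ml DESeq2 called 3 genes of the list and 598 of all genes, and the fit of only the groups compared called 1 of the list, Adh1. Between 30 and 10 ng/ml DESeq2 called 1 of the list, Adh1. The cause was not tested. Without both libraries labelled 100 ng/ml, an alternative chosen after seeing the data, 21 genes of the list passed at 10 ng/ml and 15 at 30 ng/ml. With the replicate number as a block, 23 genes of the list passed at 10 ng/ml, 15 at 30 ng/ml and 0 at 100 ng/ml, 11 between 100 and 10 ng/ml, 8 between 100 and 30 ng/ml and 0 between 30 and 10 ng/ml, and 136 of all genes passed at 100 ng/ml. The numbers did not pair the libraries: deviations of same-numbered libraries correlated at -0.0857 to 0.0339 over 11157 genes. At 100 ng/ml limma-voom called 101 of all genes higher and 91 lower, against 141 and 53 in edgeR.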
